A study of Mus musculus with 22 samples.

Results

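The genes described here are the 4 activin and inhibin β-subunits Inhba, Inhbb, Inhbc and Inhbe, the activin antagonist Fst (follistatin) and Gdf15, a distant member of the same ligand family. They were picked by gene symbol, after their measured values in these same libraries were known, from the 24475 genes in a table of mouse liver mRNA. All 6 symbols were found, and 5 of the 6 passed the filter on low values, a mean of at least 0.5 RPKM over the 22 libraries. Inhbb did not pass it. RPKM counts the reads of a gene relative to its transcript length and to the size of the library.

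The libraries came from whole liver of Gcg KO and wild type (WT) mice, each without infusion or infused with glucagon at 30 or 150 µg/d. Gcg KO mice lack the gene for the precursor of glucagon and of the glucagon-like peptides, whereas WT mice keep their own glucagon during the infusion. There were 3 Gcg KO libraries without infusion, 4 at 30 µg/d and 4 at 150 µg/d, and the same numbers for WT. The controls are labelled as having had no infusion, not a vehicle, and the labels used here give no age, sex, route or length of infusion. Libraries are called by the running number in their labels, from 1 to 22.

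Activins are dimers of β-subunits: 2 chains of the Inhba product form activin A, and the products of Inhbb, Inhbc and Inhbe form activins B, C and E. Activin A binds a type II receptor (Acvr2a or Acvr2b), which recruits a type I receptor such as Acvr1b, and the signal passes through Smad2 and Smad3. Follistatin binds activins outside the cell and keeps them from their receptors. Inhbc and Inhbe are known as liver genes, and activin A is known to restrain hepatocyte growth. Gdf15 is a secreted stress protein that acts on the brainstem through the receptor Gfral, and its gene is a known target of the integrated stress response and of p53. Glucagon acts on hepatocytes through its receptor Gcgr and raises cAMP, and in humans follistatin is known to be released from the liver in response to glucagon.

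The promoters of Inhba and Inhbe are shown because these β-subunits had the widest differences between uninfused Gcg KO and WT liver, in opposite directions. Each line holds 250 bases before and 50 after an annotated transcript start (RefSeq, build GRCm38.p6), 5′ to 3′ on the strand of the gene. The windows are chr13:16011601-16011900 on the plus strand for Inhba and chr10:127351799-127352098 on the minus strand for Inhbe. The annotated span of Inhba begins upstream of its window, at 16004256, and no window at that end was searched. In the GENCODE M21 annotation the span of Inhbe also reaches upstream of its window, to 127354411, and no window was searched there either.
Inhba: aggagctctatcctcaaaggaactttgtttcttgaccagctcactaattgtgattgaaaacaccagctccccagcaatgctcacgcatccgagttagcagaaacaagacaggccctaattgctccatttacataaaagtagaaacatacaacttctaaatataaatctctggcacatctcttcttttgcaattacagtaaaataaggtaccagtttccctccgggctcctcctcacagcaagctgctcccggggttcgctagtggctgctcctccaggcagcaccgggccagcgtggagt
Inhbe: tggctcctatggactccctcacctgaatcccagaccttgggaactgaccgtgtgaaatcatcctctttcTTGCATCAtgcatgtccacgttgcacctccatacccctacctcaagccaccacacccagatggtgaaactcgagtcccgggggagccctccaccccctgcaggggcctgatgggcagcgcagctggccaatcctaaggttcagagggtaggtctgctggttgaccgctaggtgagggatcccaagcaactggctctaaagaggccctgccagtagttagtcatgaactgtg
The capitals mark the only match found in the windows of 5 members, Fst having no entry in the table. It is to TGATGNAA, the composite element bound by ATF4 with C/EBP proteins, read on the opposite strand and starting at position −181 from the start. That element occurred on either strand in 3.97% of 32851 promoter windows of the same length. The cAMP response element TGACGTCA (1.79% of windows), its shorter core TGACG (20.8%, which includes all windows with the full element), the AP-1 site TGANTCA (7.81%) and the FOXO site TGTTTAC (3.65%) were not in these windows on either strand. A match or its absence describes these letters and no more.

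On build GRCm38.p6, Inhba lies on chromosome 13 at 16004256 to 16031609 and Fst on the same chromosome at 114452262 to 114458989. Inhbb lies on chromosome 1 at 119415463 to 119422248, and Gdf15 on chromosome 8 at 70629393 to 70632470. Inhbe (127349402 to 127351848) and Inhbc (127356322 to 127370548) are neighbours on chromosome 10, on the same strand and 4473 bases apart by these spans. GENCODE M21 places Inhbe at 127348857 to 127354411, which makes the gap narrower. In the GENCODE M21 annotation, exons of Inhbc share 268 bases with the antisense gene Gm47200 and exons of Fst share 115 bases with the antisense gene Gm47040. The sources used here do not say whether counting took strand into account, so reads of these 2 members and of their antisense partners may not be separated.

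Depth, estimated from the steps between low RPKM values, was 11.1 to 17.7 M reads per library. The deleted gene, Gcg, had an RPKM of 0 in each of the 22 libraries in both genotypes, so it does not check the genotype labels in liver. Gcgr stood at 83.0 ± 11 RPKM in uninfused Gcg KO liver and 89.8 ± 3.83 RPKM in uninfused WT liver (SD, n = 3 each). The 7 hepatocyte markers in the table had a mean log2(RPKM + 1) of 11.3 to 11.6 in every library, and their summed level was 48300 to 75000 RPKM in uninfused Gcg KO and 42600 to 47300 RPKM in uninfused WT, with no overlap. Libraries 4 (Gcg KO, no infusion) and 13 (Gcg KO, 30 µg/d) stood apart in 8 liver genes that are higher in females, with a mean log2(RPKM + 1) of 4.17 and 2.51 against 0.341 to 1.22 in the other libraries. For the 5 tested members, differences between groups that hold these libraries are also given without them.

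Across the 11590 tested genes, limma with Benjamini-Hochberg adjustment called genes at an adjusted p under 0.05 in each comparison. Gcg KO against WT without infusion had 1.54% of genes called (92 higher and 87 lower). Within Gcg KO, the called share was 0.0863% at 30 µg/d against none and 2.72% at 150 µg/d against none (152 higher and 163 lower). Within WT it was 0% at 30 µg/d and 0.293% at 150 µg/d against none (10 higher and 24 lower). Between the genotypes under infusion, 0.328% were called at the 30 µg/d dose (13 higher and 25 lower in Gcg KO) and 0.0259% at the 150 µg/d dose. The difference between the genotypes in the response to infusion had 0.00863% of genes called for the lower dose and 0% for the higher. Where no gene was called, 657 genes (30 µg/d in WT) and 1187 genes (the genotype difference in response at 150 µg/d) had an unadjusted limma p under 0.05. With limma's array weights, which count noisier libraries less, the called genes in these comparisons were 4 and 66. The directions of the called genes moved with the scaling. Median-of-ratios scaling gave 98 higher and 147 lower in uninfused Gcg KO against WT and 236 higher and 115 lower at 150 µg/d against none in Gcg KO. It gave 11 higher and 15 lower at 150 µg/d against none in WT, and 6 higher and 26 lower in Gcg KO against WT at 30 µg/d. Quantile normalization gave 188 higher and 124 lower at 150 µg/d in Gcg KO, 15 higher and 17 lower at 150 µg/d in WT, and 6 higher and 21 lower in Gcg KO against WT at 30 µg/d.

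Inhba, the subunit of activin A, had its highest level in uninfused Gcg KO liver, with 7.92, 8.39 and 8.61 RPKM in libraries 4, 5 and 6, against 2.55, 0.883 and 2.39 RPKM in uninfused WT libraries 1, 2 and 3. The groups did not overlap, and the lowest Gcg KO library was far above the highest WT library. How many of all tested genes show no overlap between these groups was not counted. In Gcg KO mice given glucagon, Inhba had 5.57, 1.62, 3.44 and 2.59 RPKM at 30 µg/d and 1.71, 1.37, 1.5 and 2.03 RPKM at 150 µg/d. All 8 infused Gcg KO libraries lay below all 3 uninfused ones, and only library 11 at 30 µg/d stood above 4 RPKM. In WT the values were 1.49, 1.35, 3.78 and 2.95 RPKM at 30 µg/d and 1.58, 1.26, 1.70 and 1.84 RPKM at 150 µg/d, which overlapped the uninfused WT libraries at both doses. Since these are whole-liver libraries, a change in RNA per cell and a change in the number of cells of a type that express a gene cannot be told apart.

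Ordered by mean, Inhba stood at 8.31 ± 0.353 RPKM in uninfused Gcg KO (SD, n = 3), then 3.31 ± 1.69 in Gcg KO and 2.39 ± 1.17 in WT at 30 µg/d (n = 4 each). The lowest were 1.94 ± 0.919 in uninfused WT (n = 3), 1.65 ± 0.288 in Gcg KO at 150 µg/d and 1.59 ± 0.249 in WT at 150 µg/d (n = 4 each). Only the first of these groups was clear of its neighbour in the order; each of the other neighbouring pairs overlapped. On the log2(RPKM + 1) scale, which understates differences of low genes, Inhba was 1.72 ± 0.29 (SE) higher in uninfused Gcg KO than in uninfused WT, a ratio of mean RPKM of 4.28. At 150 µg/d in Gcg KO the difference from no infusion was −1.82 ± 0.271, and at 30 µg/d it was −1.19 ± 0.271. In WT the differences from no infusion were 0.20 ± 0.271 at 30 µg/d and −0.13 ± 0.271 at 150 µg/d. Between the genotypes at the same dose, Gcg KO minus WT was 0.33 ± 0.251 at 30 µg/d and 0.03 ± 0.251 at 150 µg/d. The gap at 30 µg/d was larger than its SE and the gap at 150 µg/d smaller. The difference between the genotypes in the response was −1.39 ± 0.384 at 30 µg/d and −1.68 ± 0.384 at 150 µg/d. Without libraries 4 and 13, the difference was 1.75 in uninfused Gcg KO against WT, and −1.26 at 30 µg/d and −1.85 at 150 µg/d against none in Gcg KO. Without the same libraries it was 0.287 in Gcg KO against WT at 30 µg/d, and −1.46 and −1.71 for the difference in the response at 30 and 150 µg/d. Without WT library 2, the lowest of its group, the uninfused difference was 1.42 and Inhba was not called. These values also led to the choice of this gene, and the 3 uninfused Gcg KO libraries enter each of the comparisons with them, so the differences are a description with no test.

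**Figure D1:**
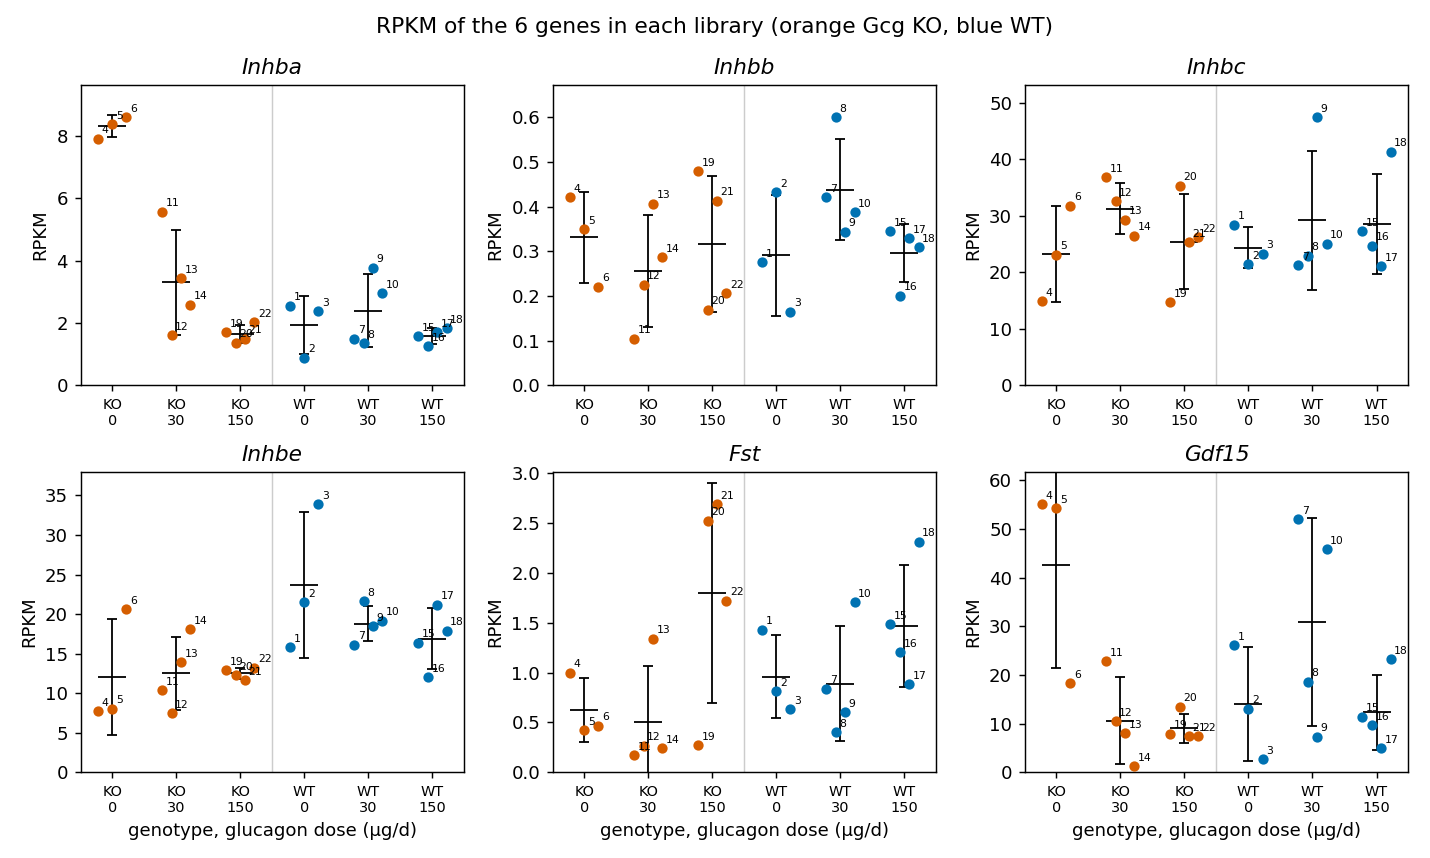
Level of each of the 6 genes in every library, in RPKM on linear axes that start at 0, with Gcg KO to the left of WT and the glucagon dose (0, 30 or 150 µg/d) rising within each genotype. Points are libraries with their running numbers, and bars are group means with the SD. The 3 uninfused Gcg KO libraries lie above every other library for Inhba, whereas the groups overlap widely for Inhbc.

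Inhbb, the subunit of activin B, was low in every group. Over the 22 libraries it ranged from 0.104 to 0.600 RPKM, which by the depth estimate is 4.93 to 30.4 reads. Group means ran from 0.438 ± 0.113 RPKM in WT at 30 µg/d to 0.256 ± 0.126 RPKM in Gcg KO at 30 µg/d (n = 4 each). Every neighbouring pair of groups in the order of means overlapped. Fitted without the filter on low values, Inhbb differed by 0.05 ± 0.102 on the log2(RPKM + 1) scale between uninfused Gcg KO and WT.

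Inhbc, the subunit of activin C, was the most abundant β-subunit, with a mean of 27.3 RPKM over the 22 libraries, higher than 84.1% of the tested genes. It had 14.9, 23.2 and 31.8 RPKM in uninfused Gcg KO, against 28.5, 21.4 and 23.3 RPKM in uninfused WT. The Gcg KO libraries spanned the whole range of the WT ones. Under infusion it had 26.5 to 36.9 RPKM at 30 µg/d and 14.8 to 35.4 RPKM at 150 µg/d in Gcg KO, and 21.3 to 47.5 RPKM at 30 µg/d and 21.1 to 41.4 RPKM at 150 µg/d in WT. Group means lay between 31.3 ± 4.47 RPKM (Gcg KO at 30 µg/d, n = 4) and 23.3 ± 8.47 RPKM (uninfused Gcg KO, n = 3), and all groups that were neighbours in the order overlapped. The uninfused difference of Gcg KO from WT was −0.11 ± 0.315 on the log2(RPKM + 1) scale, and it changed sign to 0.16 without library 4, alone or together with library 13. In Gcg KO the difference from no infusion was 0.46 ± 0.295 at 30 µg/d and 0.12 ± 0.295 at 150 µg/d. Without libraries 4 and 13 these were 0.215 and −0.153, so the sign at the higher dose also changed.

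Inhbe, the subunit of activin E, had 7.75, 8.07 and 20.6 RPKM in uninfused Gcg KO, against 15.8, 21.5 and 33.9 RPKM in uninfused WT. Library 6 of the Gcg KO group lay within the WT range, and the other 2 Gcg KO libraries were below it. At 30 µg/d Inhbe had 10.4, 7.47, 13.9 and 18.1 RPKM in Gcg KO, against 16.1, 21.6, 18.4 and 19.2 RPKM in WT. At 150 µg/d the values were 12.9, 12.3, 11.7 and 13.2 RPKM in Gcg KO, against 16.4, 12, 21.2 and 17.9 RPKM in WT. The genotypes overlapped at both doses, by 1 Gcg KO library at 30 µg/d and by the lowest WT library at 150 µg/d. The order of means put the 3 WT groups (23.7 ± 9.26 without infusion, 18.8 ± 2.25 at 30 µg/d and 16.9 ± 3.83 at 150 µg/d) above the 3 Gcg KO groups (12.1 ± 7.34, 12.5 ± 4.60 and 12.5 ± 0.684 at the same doses), with every neighbouring pair overlapping. On the log2(RPKM + 1) scale, Gcg KO minus WT was −0.98 ± 0.318 without infusion, −0.62 ± 0.275 at 30 µg/d and −0.38 ± 0.275 at 150 µg/d. The uninfused difference was −1.41 without library 6, −0.70 without WT library 3 and −0.755 without libraries 4 and 13. At 30 µg/d Gcg KO minus WT was −0.689 without libraries 4 and 13. Within Gcg KO, infused minus uninfused Inhbe was 0.10 ± 0.297 at 30 µg/d and 0.18 ± 0.297 at 150 µg/d, both smaller than the SE, and −0.193 and −0.0511 without libraries 4 and 13.

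Inhbc and Inhbe did not vary together, although they are neighbours in the genome: across the 22 libraries Pearson's r of their log2(RPKM + 1) was 0.069. Inhba held 20.2 ± 5.84% of the summed RPKM of the 4 subunits in uninfused Gcg KO, against 3.81 ± 1.72% in uninfused WT (n = 3 each). The lowest Gcg KO library was at 14% and the highest WT library at 5.42%, so the groups did not overlap. Under infusion the share in Gcg KO was 6.78 ± 2.85% at 30 µg/d and 4.31 ± 1.27% at 150 µg/d, and in WT it was 4.57 ± 1.49% and 3.39 ± 0.35% at the same doses (n = 4 each). Inhbc and Inhbe together held 78.9 ± 6.29% in uninfused Gcg KO and 95.6 ± 1.5% in uninfused WT. The summed level itself was 44.1 ± 15.6 RPKM in uninfused Gcg KO and 50.4 ± 8.26 RPKM in uninfused WT, a gap smaller than the SD of the Gcg KO group.

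**Figure D2:**
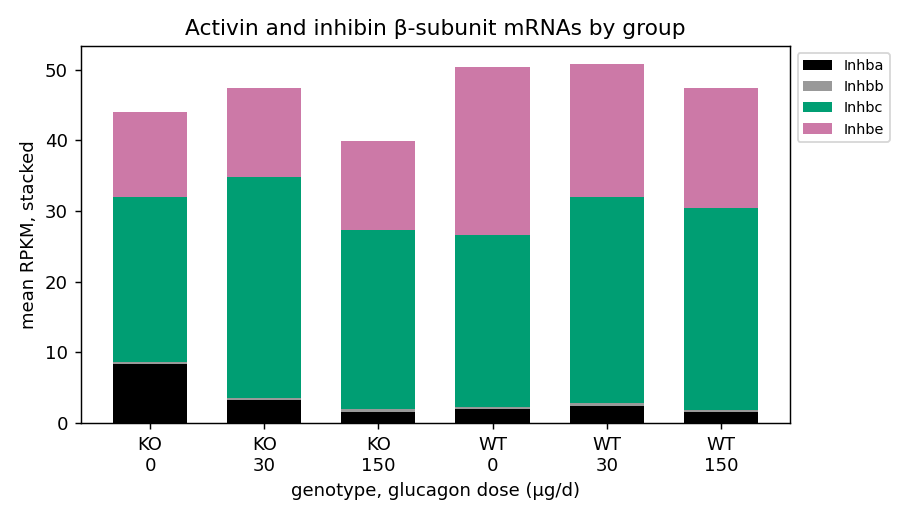
Mean RPKM of the 4 β-subunits, stacked, in each group, with Gcg KO to the left of WT and the glucagon dose in µg/d on the horizontal axis. Inhba (black) takes its largest share in uninfused Gcg KO, where it averaged 20.2% of the sum over libraries, and Inhbc and Inhbe make up most of each bar.

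Fst, which encodes the antagonist follistatin, was low, with a mean of 1.07 RPKM over the 22 libraries. In Gcg KO it had 0.999, 0.421 and 0.468 RPKM without infusion, 0.173, 0.269, 1.34 and 0.240 RPKM at 30 µg/d, and 0.275, 2.52, 2.69 and 1.72 RPKM at 150 µg/d. Of the 4 libraries at the higher dose, 3 were above every uninfused Gcg KO library, and library 19 was below them all. In WT it had 1.43, 0.816 and 0.631 RPKM without infusion, 0.837, 0.401, 0.604 and 1.71 RPKM at 30 µg/d, and 1.49, 1.20, 0.885 and 2.31 RPKM at 150 µg/d. The WT groups overlapped, with 2 of the 4 libraries at 150 µg/d above the highest uninfused one. The means at 150 µg/d, 1.8 ± 1.1 RPKM in Gcg KO and 1.47 ± 0.612 RPKM in WT, were the highest of the 6 groups. The difference from no infusion at 150 µg/d was 0.69 ± 0.323 on the log2(RPKM + 1) scale in Gcg KO, a ratio of means of 2.86, and 0.32 ± 0.323 in WT, a ratio of 1.53. The Gcg KO difference was 1.03 without library 19 and 0.843 without libraries 4 and 13. The uninfused difference of Gcg KO from WT was −0.26 ± 0.346, smaller than its SE. It ran from −0.419 (without library 4) to −0.0967 (without library 1) when 1 library was left out, and was −0.419 ± 0.355 without libraries 4 and 13. At 30 µg/d Gcg KO minus WT was −0.34 ± 0.299, or −0.576 without libraries 4 and 13.

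The ratio of Inhba to Fst RPKM combines the activin A subunit and its antagonist. It was 7.93 to 19.9 in the 3 uninfused Gcg KO libraries and 1.08 to 3.78 in the 3 uninfused WT libraries, with no overlap. At 150 µg/d it was 0.545 to 6.22 in Gcg KO and 0.794 to 1.92 in WT, and at 30 µg/d it was 2.57 to 32.1 in Gcg KO and 1.73 to 6.25 in WT. At 30 µg/d the Gcg KO libraries thus covered values both inside and above the WT range. Fst was low, and the highest ratio, 32.1, came from library 11, where Fst was at 0.173 RPKM. Between the uninfused genotypes the log2 difference of Fst itself was −0.26 ± 0.346, smaller than its SE, beside 1.72 ± 0.29 for Inhba. The ratio used 2 genes chosen with their values known and is given with no test.

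Gdf15 varied most among the 6 genes, from 1.27 to 55.1 RPKM, a 43.5-fold range over the 22 libraries. It had 55.1, 54.3 and 18.3 RPKM in uninfused Gcg KO, against 26.1, 13.1 and 2.72 RPKM in uninfused WT. Libraries 4 and 5 were above all WT libraries of that comparison, and library 6 was inside the WT range. In infused Gcg KO it had 22.8, 10.5, 7.98 and 1.27 RPKM at 30 µg/d and 7.91, 13.5, 7.42 and 7.41 RPKM at 150 µg/d. All 4 libraries at 150 µg/d were below the lowest uninfused Gcg KO library, and library 11 at 30 µg/d was above it. In infused WT it had 51.9, 18.6, 7.28 and 45.8 RPKM at 30 µg/d and 11.4, 9.70, 4.92 and 23.2 RPKM at 150 µg/d. Libraries 7 and 10 of WT at 30 µg/d thus came near the levels of uninfused Gcg KO libraries 4 and 5.

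The means of Gdf15 were 42.5 ± 21 RPKM in uninfused Gcg KO (n = 3), 30.9 ± 21.4 in WT at 30 µg/d, 14 ± 11.7 in uninfused WT (n = 3) and 12.3 ± 7.78 in WT at 150 µg/d. They were lowest in Gcg KO at 30 µg/d (10.6 ± 8.98) and at 150 µg/d (9.06 ± 2.97, n = 4 for each infused group), and all neighbours in this order overlapped. On the log2(RPKM + 1) scale the uninfused difference of Gcg KO from WT was 1.8 ± 0.815, and it was 1.0 without library 3 of WT and 1.54 without libraries 4 and 13. In Gcg KO the difference from no infusion was −2.18 ± 0.762 at 30 µg/d and −2.0 ± 0.762 at 150 µg/d, or −1.94 and −1.74 without libraries 4 and 13. In WT it was 1.17 ± 0.762 at 30 µg/d and 0.07 ± 0.762 at 150 µg/d. Without library 3 these WT differences were 0.37 and −0.731, and without library 1 they were 1.8 and 0.70. The SE of Gdf15 in the uninfused comparison was 0.815, against 0.29 for Inhba, although Gdf15 was the more abundant gene. The mean of the SDs within groups, as a share of the group mean, was 63.8% for Gdf15 and 62.1% for Fst, against 30.8% for Inhba and a median of 13.5% over the tested genes.

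Of the 5 tested members, 1 was called in uninfused Gcg KO against WT (Inhba, higher), beside 1.54% of all tested genes. In Gcg KO at 150 µg/d against none, 1 of 5 was called (Inhba, lower), beside 2.72% of all tested genes. Array weights called Inhbe as well in the first of these comparisons and Fst as well in the second. Leaving out 1 library added Inhbe in the first (without library 6) and Fst in the second (without library 19). In the other 7 comparisons limma called 0 of 5, with array weights too, and without library 11 it called Inhba at 30 µg/d against none in Gcg KO. In that comparison 0.0863% of all tested genes were called. The Inhba groups did not overlap there. The share of all tested genes without overlap was not counted in any comparison, so nothing is read from the statements of overlap. Because the members were selected on values of these contrasts, nothing is read from their counts.

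**Figure D3:**
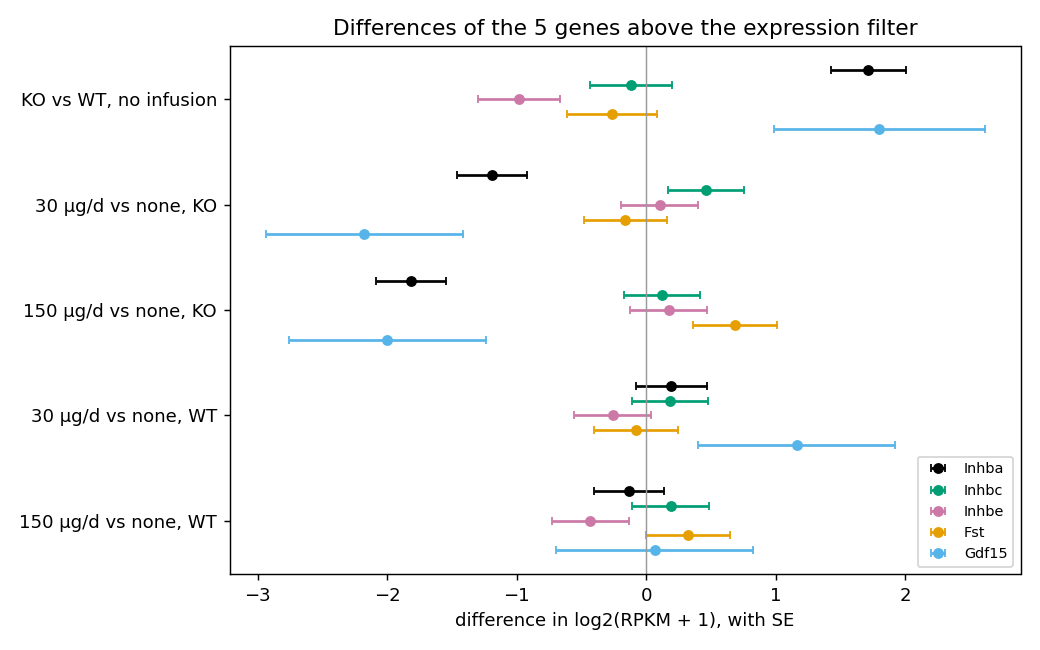
Difference of each of the 5 members above the expression filter in 5 comparisons, on the log2(RPKM + 1) scale, with limma's SE as bars; positive values mean higher in Gcg KO (top row) or in infused mice (other rows). Inhba and Gdf15 lie to the right in Gcg KO against WT without infusion and to the left in both doses within Gcg KO, and these rows share the 3 uninfused Gcg KO libraries.

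The genes whose pattern across the 22 libraries was most like that of Gdf15 were early-response genes, most of which are transcribed within minutes of a stimulus. Likeness was measured by Pearson's r of log2(RPKM + 1) over all tested genes, taking the 5 highest for each member. Gdf15 had r = 0.927 with Jund, 0.918 with Egr1, 0.904 with Fos, 0.901 with Jun and 0.890 with Zfp36, which encodes an mRNA-decay factor. The likeness was seen within groups too: with each group's mean subtracted, r was 0.909, 0.893, 0.889, 0.867 and 0.883 in the same order. Leaving out the 2 libraries farthest from the median left r at 0.856 to 0.924. The points share library, depth and liver sample, and r is given as a description over genes picked for it.

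The levels show the same by library. Egr1, which encodes a transcription factor, had 62.8, 92.5 and 21.6 RPKM in uninfused Gcg KO, against 78.2, 19 and 2.31 RPKM in uninfused WT. In WT at 30 µg/d it had 72.1, 22.6, 12.2 and 111 RPKM in libraries 7 to 10, and the 2 high libraries were those with high Gdf15. Fos, a subunit of the AP-1 factor, had 14.4, 43.0 and 2.74 RPKM in uninfused Gcg KO, against 13.7, 3.52 and 0.570 RPKM in uninfused WT. Library 14 (Gcg KO, 30 µg/d) had the lowest value of the 22 for Gdf15 (1.27 RPKM), Egr1 (1.79 RPKM) and Fos (0.401 RPKM). Library 3 (WT, no infusion) came next for all 3 genes. The part of this variation in the Gdf15 differences between groups was not tested.

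**Figure D4:**
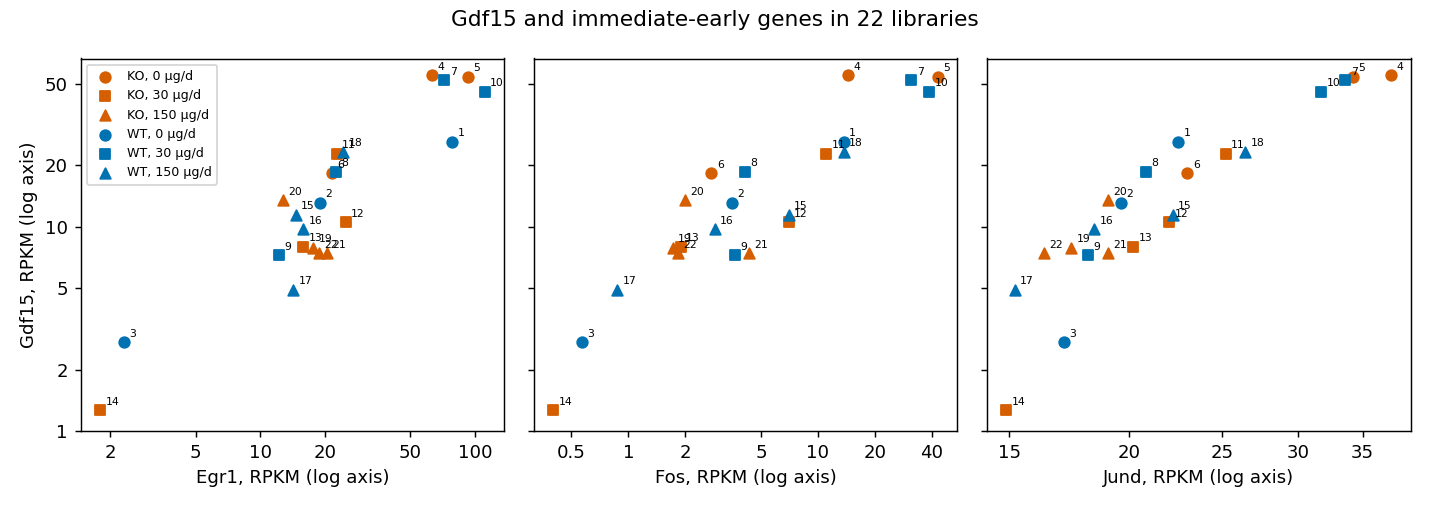
Gdf15 against Egr1, Fos and Jund in the 22 libraries, in RPKM on log axes; orange marks Gcg KO, blue marks WT, and circles, squares and triangles mark 0, 30 and 150 µg/d of glucagon. Gdf15 is low where the early genes are low (libraries 3 and 14) and high where they are high (libraries 4, 5, 7 and 10), in both genotypes.

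The other members had other neighbours. Inhba was most like Slc17a2, a phosphate transporter family gene (r = 0.83, or 0.451 with group means subtracted), followed by Rpl35a, Slc52a2, Yeats2 and Hk1 (r = 0.819, 0.813, 0.811 and 0.795). Slc17a2 stood at 94.0 ± 13.4 RPKM in uninfused Gcg KO, against 52.8 ± 4.77 RPKM in uninfused WT (n = 3 each). Fst was most like Paqr3 (0.876), Tuba8 (0.874), Avpi1 (0.872), Anxa5 (0.861) and Iah1 (0.855), and these held with group means subtracted (0.792 to 0.858). Inhbc was most like Dnajc21 (0.895), and Inhbe most like Dolpp1 (0.798). Among the 5 tested members r stayed between −0.379 (Gdf15 and Inhbe) and 0.374 (Gdf15 and Inhba), and with group means subtracted the pair of Gdf15 and Inhbe was at −0.661.

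The counts for the gene lists below stand beside the called share of all tested genes. That share was 1.54% in uninfused Gcg KO against WT and 2.72% at 150 µg/d against none in Gcg KO. A count of 0 in a short list does not show a lack of change. Of 14 receptor and co-receptor genes measured, 11 were tested, and limma called 0 of them in uninfused Gcg KO against WT. Array weights called 1 there, Tgfbr2, and 3 had an unadjusted p under 0.05 (2 higher and 1 lower). Acvr2a, a type II receptor, had 4.23 ± 0.386 RPKM in uninfused Gcg KO and 3.77 ± 0.717 RPKM in uninfused WT, and Acvr2b, the other, had 1.45 ± 0.0838 and 2.05 ± 0.242 RPKM in the same groups (n = 3 each). Acvr1b, the type I receptor of activin A, had 3.72 ± 0.243 RPKM in uninfused Gcg KO and 4.59 ± 0.252 RPKM in uninfused WT, with a log2 difference of −0.25 ± 0.106 (limma adjusted p = 0.235). Acvr1c, a type I receptor of activin B and nodal, averaged 0.0115 RPKM in uninfused Gcg KO and 0.024 RPKM in uninfused WT, too low to test. In Gcg KO, 1 of the 11 fell at 150 µg/d against none. That was Acvr1, a type I receptor mainly of bone morphogenetic proteins, with 4.14 ± 0.45 RPKM at 150 µg/d (n = 4) against 6.20 ± 0.902 RPKM without infusion (n = 3), a log2 difference of −0.48 ± 0.113 (limma adjusted p = 0.0297). The call was lost without library 4, 5, 6, 21 or 22 alone and held without libraries 4 and 13 together. The median log2 difference of the 11 was 0.14 in uninfused Gcg KO against WT, beside 0.01 for all tested genes, and −0.14 at 150 µg/d in Gcg KO, beside −0.04.

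None of the SMAD genes passed the test. Of 16 SMAD transducers and regulators 14 were tested. Limma called 0 of them in uninfused Gcg KO against WT, beside 1.54% of all tested genes. It also called 0 at 150 µg/d against none in Gcg KO, beside 2.72%. Array weights called 0 in both as well, and 1 gene in each had an unadjusted p under 0.05. Smad2 had 3.26 ± 0.483 RPKM in uninfused Gcg KO and 2.95 ± 0.378 RPKM in uninfused WT, and Smad3 had 2.93 ± 0.539 and 3.24 ± 0.328 RPKM in the same groups. Smad7, an inhibitory SMAD that the pathway itself induces, had 2.93 ± 1.79 RPKM in uninfused Gcg KO and 3.65 ± 0.534 RPKM in uninfused WT. At 150 µg/d Smad7 had 1.57 ± 0.261 RPKM in Gcg KO and 1.92 ± 0.174 RPKM in WT (n = 4 each). Its log2 difference from no infusion was −0.53 ± 0.224 in Gcg KO (limma adjusted p = 0.214) and −0.67 ± 0.224 in WT (adjusted p = 0.239). Of 14 genes known as SMAD2/3 targets 11 were tested, and limma called 0 in uninfused Gcg KO against WT, with a median log2 difference of 0.31 beside 0.01 for all tested genes. Of these targets 3 had an unadjusted p under 0.05, all higher, and array weights called 1, Tgfbi. Fn1, which encodes fibronectin and was the most abundant of them, had 403 ± 20.8 RPKM in uninfused Gcg KO and 335 ± 29.4 RPKM in uninfused WT.

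**Figure D5:**
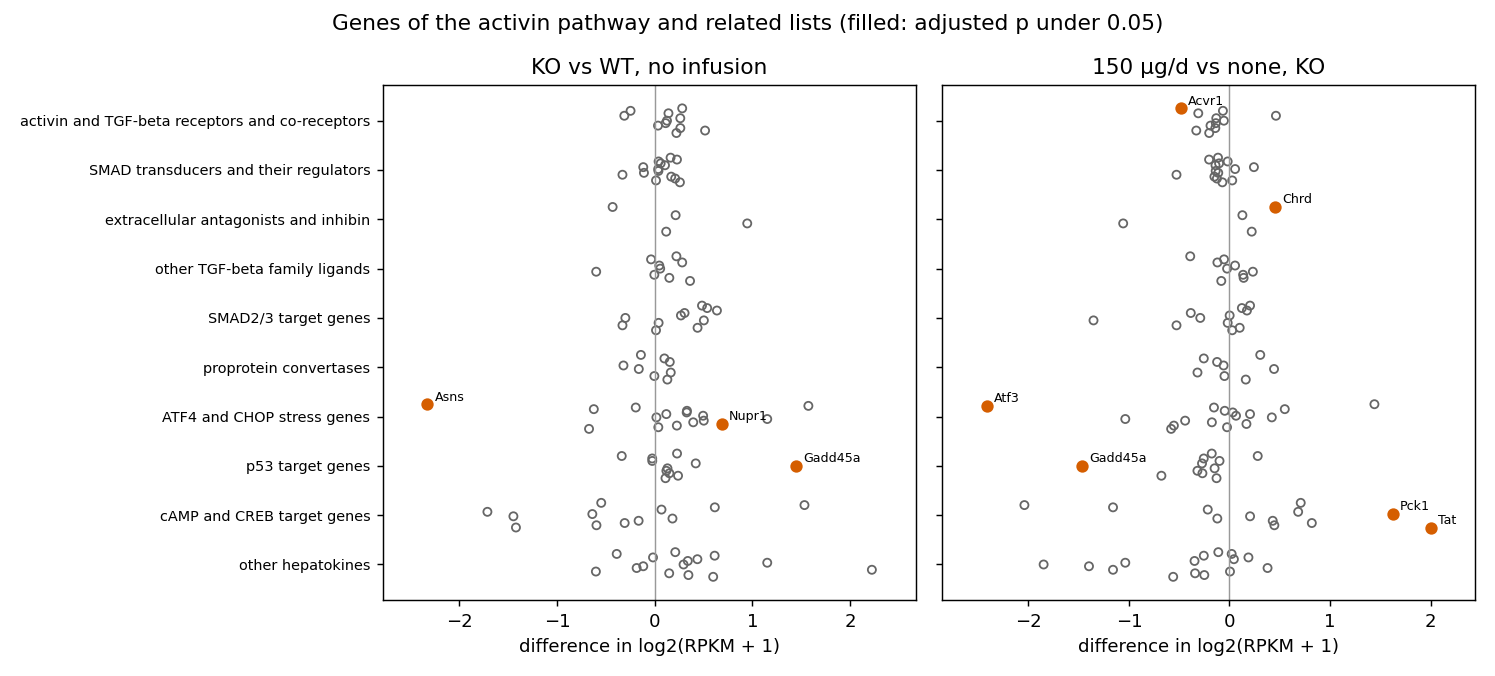
Log2 difference of every tested gene of the activin pathway and related lists in uninfused Gcg KO against WT (left) and at 150 µg/d against none in Gcg KO (right), on the log2(RPKM + 1) scale. Each point is 1 gene; filled, named points passed limma at an adjusted p under 0.05. Of all tested genes, 1.54% were called in the left comparison and 2.72% in the right one.

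Other antagonists were mostly too low to test: 4 of 13 in the table passed the filter. Fstl3, the follistatin-like protein that also binds activins, averaged 0.0509 RPKM in uninfused Gcg KO and 0.0095 RPKM in uninfused WT. Inha, the α-subunit that turns activin chains into inhibins, averaged 0.0356 RPKM in uninfused Gcg KO and 0.0414 RPKM in uninfused WT. Chrd (chordin), an antagonist of bone morphogenetic proteins, rose at 150 µg/d in Gcg KO, with 1.67 ± 0.0962 RPKM (n = 4) against 0.962 ± 0.18 RPKM without infusion (n = 3), a log2 difference of 0.45 ± 0.111 (limma adjusted p = 0.0364). In uninfused WT Chrd had 1.64 ± 0.209 RPKM. The Chrd call was lost without library 4, 5, 20, 21 or 22, and without libraries 4 and 13. Of 20 other ligands of the family 9 were tested, and limma called 0 in uninfused Gcg KO against WT, with 2 at an unadjusted p under 0.05 and 2 called with array weights (Tgfb1 and Bmp4). Of the proprotein convertases, the enzymes that cut the ligands from their precursors, limma called 0 of 8 there, with 0 at an unadjusted p under 0.05 and 0 called with array weights. Furin, a convertase, had 61.4 ± 7.85 RPKM in uninfused Gcg KO and 56.9 ± 1.93 RPKM in uninfused WT.

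Some stress genes share regulators with Gdf15. Of 20 ATF4 and CHOP stress genes 16 were tested. In uninfused Gcg KO against WT 1 of them rose and 1 fell, beside 1.54% of all tested genes called. Asns, asparagine synthetase, fell to 1.73 ± 0.962 RPKM in uninfused Gcg KO, against 12.3 ± 1.86 RPKM in uninfused WT (n = 3 each), a log2 difference of −2.33 ± 0.493 (limma adjusted p = 0.0293). Nupr1, a stress-induced chromatin protein, rose to 1.22 ± 0.376 RPKM, against 0.366 ± 0.0777 RPKM in WT (log2 difference 0.69 ± 0.151, adjusted p = 0.0306). At 30 µg/d Asns was again lower in Gcg KO, with 0.875 ± 0.272 RPKM against 12.9 ± 8.49 RPKM in WT (n = 4 each, log2 difference −2.61 ± 0.427, limma adjusted p = 0.00986), a call that held in all 22 fits that left out 1 library. The transcripts of the factors themselves were close: Atf4 had 43.3 ± 6.94 RPKM and Ddit3 (CHOP) 3.44 ± 1.08 RPKM in uninfused Gcg KO, against 49.6 ± 8.0 and 3.07 ± 0.833 RPKM in uninfused WT. Fgf21, a stress-induced liver hormone, had 2.59 ± 2.07 RPKM in uninfused Gcg KO, against 0.442 ± 0.0836 RPKM in uninfused WT (log2 difference 1.15 ± 0.315, adjusted p = 0.0674). Atf3, a stress factor of the same list that is also an early gene, fell to 0.707 ± 0.334 RPKM at 150 µg/d in Gcg KO (n = 4), against 11 ± 10.2 RPKM without infusion (n = 3, log2 difference −2.42 ± 0.639, adjusted p = 0.0478). That call held in 8 of the 22 fits that left out 1 library, and not without libraries 4 and 13. The Asns and Nupr1 calls in uninfused mice were lost without any 1 of 5 libraries, among them library 4 and each uninfused WT library, and without libraries 4 and 13.

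Among 11 tested p53 targets, 1 gene passed, Gadd45a, which encodes a growth-arrest protein. It rose to 15.3 ± 7.52 RPKM in uninfused Gcg KO, against 4.69 ± 1.23 RPKM in uninfused WT (n = 3 each, log2 difference 1.45 ± 0.347, limma adjusted p = 0.0422). It fell to 4.89 ± 2.32 RPKM at 150 µg/d in Gcg KO (n = 4), against the same uninfused libraries (log2 difference −1.47 ± 0.325, adjusted p = 0.0226). The first call held in 10 of 22 fits that left out 1 library and the second in 19 of 22, and neither held without libraries 4 and 13. Both comparisons share the 3 uninfused Gcg KO libraries. Of all tested genes, 1.54% were called in the first and 2.72% in the second.

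Among 12 tested cAMP and CREB targets, 2 rose at 150 µg/d against none in Gcg KO and 0 fell, beside 2.72% of all tested genes. Pck1, which encodes the gluconeogenic enzyme PEPCK, had 1590 ± 385 RPKM at 150 µg/d (n = 4) against 520 ± 158 RPKM without infusion (n = 3), a log2 difference of 1.62 ± 0.333 (limma adjusted p = 0.0161). Tat, tyrosine aminotransferase, had 899 ± 386 RPKM against 211 ± 50.6 RPKM (log2 difference 2.0 ± 0.41, adjusted p = 0.0161). Across the 22 libraries r with the 12 genes had a median of 0.496 for Fst, −0.335 for Inhba and 0.315 for Gdf15, beside 0.030, 0.042 and 0.018 over all tested genes, as a description with no p. Pck1 kept its call without libraries 4 and 13 and lost it without library 5 or 21. Tat lost its call without libraries 4 and 13, and without library 4, 5 or 21 alone. Of 15 other liver-secreted factors tested, limma called 0 in uninfused Gcg KO against WT, with 3 at an unadjusted p under 0.05 and 1 called with array weights (Fetub). Igfbp1, an insulin-like growth factor binding protein that is also a cAMP-induced gene, had 160 ± 127 RPKM in uninfused Gcg KO and 35.7 ± 30.3 RPKM in uninfused WT (log2 difference 2.22 ± 1.27, adjusted p = 0.382).

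Markers of non-parenchymal cells moved with Inhba in part. Of 10 endothelial markers, 5 rose in uninfused Gcg KO against WT and 0 fell, beside 1.54% of all tested genes called. The 5 were Pecam1, Lyve1, Stab2, Cdh5 and Tek. The summed level of the 10 was 144 to 149 RPKM in uninfused Gcg KO and 105 to 119 RPKM in uninfused WT. Cdh5 (VE-cadherin) had 12.8 ± 0.464 RPKM in uninfused Gcg KO and 8.63 ± 0.903 RPKM in uninfused WT (n = 3 each, log2 difference 0.52 ± 0.113, limma adjusted p = 0.0301). In Gcg KO, 3 of the 10 fell at 150 µg/d against none (Pecam1, Cdh5 and Tek), beside 2.72% of all tested genes called. The sum of the 10 was 115 to 136 RPKM at that dose. Without libraries 4 and 13 these counts were 0 of 10 and 1 of 10. With only the groups compared in the fit they were 0 and 0, and with array weights 7 and 4. The Cdh5 call in uninfused mice was lost without libraries 4 and 13, and without library 2, 3, 4 or 5 alone. The 9 Kupffer cell and macrophage markers summed to 232 to 241 RPKM in uninfused Gcg KO and 150 to 200 RPKM in uninfused WT, and the 10 stellate cell and fibroblast markers to 178 to 181 and 139 to 153 RPKM in the same groups. Limma called 0 in either list, with 7 Kupffer cell and 2 stellate cell markers higher at an unadjusted p under 0.05, and array weights called 3 and 2. At 150 µg/d the Kupffer cell sums were 143 to 251 RPKM in Gcg KO and 169 to 254 RPKM in WT. The stellate cell sums were 167 to 187 and 157 to 173 RPKM in the same groups. The cholangiocyte markers summed to 60.3 to 177 RPKM in uninfused Gcg KO and 16.4 to 32.8 RPKM in uninfused WT, most of it Spp1 (118 ± 58.1 RPKM in uninfused Gcg KO and 19.8 ± 9.42 RPKM in uninfused WT). Limma called 0 of the 3 tested genes, and Spp1 was called with array weights. No marker of these lists was at 0 in all libraries. Across the 22 libraries, r of Inhba had a median of 0.466 with the endothelial and 0.477 with the Kupffer cell markers. Its median was 0.091 with the stellate cell, −0.095 with the cholangiocyte and −0.114 with the hepatocyte markers. For Gdf15 the medians were 0.285 with the endothelial and 0.017 with the Kupffer cell markers. For Inhbe they were −0.521 with the endothelial, −0.224 with the Kupffer cell and −0.396 with the stellate cell markers. For Fst they were −0.361, −0.055 and −0.025 in the same order. Group means were not subtracted for these r values, so differences between groups enter them. The part of any of these cell types in the Inhba difference was not tested. The summed RPKM of the hepatocyte markers was also higher in uninfused Gcg KO than in uninfused WT, but these 7 genes did not move together. Limma called 0 of them there, with 1 higher and 1 lower at an unadjusted p under 0.05. Array weights called 1, Cps1, which was lower in Gcg KO.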

How the data were processed

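Liver mRNA of 22 mouse libraries was sequenced after poly(A) selection with a strand-specific kit, per the labels' protocols. Per the submitters' processing notes, CASAVA 1.8.2 and FastQC were used with the build GRCm38; the aligner, counter and annotation are not stated in what was used. The authors deposited RPKM values, with 1 column per library, for 24475 genes. Whether libraries are separate mice is not stated, so p-values measure the spread between libraries. Titles in the labels gave the groups.

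The read total per library was estimated as the one that made low values of 3974 genes with 1 transcript whole numbers of reads. With a tolerance of 0.1 reads, 66.5 to 73.3% of them were whole, beside 20% by chance. This is too few for a count test, and depth is an estimate.

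Limma 3.58.1 in R 4.3.3, with a mean-variance trend, was fitted to log2(RPKM + 1) of the 11590 genes with a mean of at least 0.5 RPKM. The 6 groups were in one fit without covariates (16 residual degrees of freedom), with Benjamini-Hochberg adjustment over all genes tested in each of 9 comparisons. The fit was tested on simulated data. SE values are limma's, and SD values are over libraries on RPKM.

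The members and all gene lists were chosen with earlier results of these data known, so the members carry no p-value. From each list, up to 4 called genes with the smallest adjusted p were named, or the 2 with the highest mean where none was called, along with fixed receptors, SMADs and stress genes; not every gene so taken is named. Genes called with array weights only are named for that reason. The symbols in the table matched 6 of 6 members. Promoters are from RefSeq, and exon overlaps from GENCODE M21. Alternatives changed the pseudocount (0.1 or 0.5), the filter, the scaling, the groups in the fit and the library weights, or left out libraries.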

Additional observations from a re-analysis of the deposited data

Results flagged for a closer look

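In 3 of 24 combinations of a member and a group of 4 libraries, 1 library stood far from the others by Dixon's criterion, which flags about 1 in 20 groups by chance. Inhbc was 47.5 RPKM in library 9 (WT, 30 µg/d), and 21.3 to 25.1 RPKM in the other 3 libraries of that group. Fst was 1.34 RPKM in library 13 (Gcg KO, 30 µg/d), and 0.173 to 0.269 RPKM in the others. Gdf15 was 13.5 RPKM in library 20 (Gcg KO, 150 µg/d), and 7.41 to 7.91 RPKM in the others.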

How the results depend on the processing

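Of 396 member differences under settings other than leaving out 1 library 392 stayed within 1 SD of the reported value and none of the called ones changed sign. The alternatives reuse the libraries whose values led to the choice of Inhba, so its calls in them are a description with no test. Inhba was called in uninfused Gcg KO against WT in 30 of 31 alternatives (not without library 2, difference 1.42) and at 150 µg/d against none in Gcg KO in 31 of 31. With a pseudocount of 0.1 these Inhba differences were 2.17 and −2.27, its genotype difference in response at 150 µg/d was −2.12, and Fst was −0.90 in Gcg KO against WT at 30 µg/d; counts of called genes were 8 for 150 µg/d in WT and 1 for Gcg KO against WT at 150 µg/d. Without the filter they were 17 for 150 µg/d in WT, 14 for Gcg KO against WT at 30 µg/d and 2 for the genotype difference in response at 30 µg/d. With only the groups compared in the fit they were 1 at 30 and 1 (Inhba) at 150 µg/d in Gcg KO, 1 at 30 µg/d in WT, 12 and 0 for Gcg KO against WT at 30 and 150 µg/d, and 0 for the genotype difference in response at 30 µg/d. With array weights they were 945 for uninfused Gcg KO against WT, 21 and 770 for 30 and 150 µg/d in Gcg KO, 4 and 438 for 30 and 150 µg/d in WT, 86 for Gcg KO against WT at 30 µg/d, and 11 and 66 for the genotype difference in response. Without libraries 4 and 13 they were 22 for uninfused Gcg KO against WT, 3 and 90 for 30 and 150 µg/d in Gcg KO, and 0 for the genotype difference in response at 30 µg/d. Leaving out 1 library at a time gave 9 (without library 3) to 298 (without library 19) for uninfused Gcg KO against WT, 1 to 33 for 30 µg/d in Gcg KO, 61 (without library 4) to 586 (without library 19) for 150 µg/d in Gcg KO, 0 to 1 for 30 µg/d and 0 to 60 for 150 µg/d in WT, 9 to 62 and 0 to 4 for Gcg KO against WT at 30 and 150 µg/d, and 0 to 3 and 0 to 13 for the genotype difference in response. Without library 6, 5 differences of Inhbe moved by more than 1 SD between replicates, and no other member difference did when 1 library was left out. Over all libraries left out in turn, these 5 ranged over −1.41 to −0.70 for uninfused Gcg KO against WT, −0.122 to 0.531 and −0.0511 to 0.602 for 30 and 150 µg/d in Gcg KO, and 0.0821 to 0.79 and 0.324 to 1.03 for the genotype difference in response. The cause was not tested. No scaling moved the median of all genes by over 0.1.

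No paired analysis was possible because the running numbers in the labels are unique to each library. Groups hold 3 or 4 libraries, and the uninfused Gcg KO libraries serve every comparison with that group. The low level of Inhbb rests on few reads. Fst was low too, and its reads were not estimated. Of 19 calls of list genes in 3 comparisons, 5 held without libraries 4 and 13. With the RPKM scale as deposited and no counts, a count model was not run.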
